A study of Homo sapiens with 12 samples.

Results

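The comparison described here is that of RCC4 cells transfected with HIF1A siRNA and HIF2A siRNA together against RCC4 cells transfected with HIF1A siRNA, so that it measures what HIF2A siRNA did to the transcriptome of cells in which HIF1A was depleted as well. Its members were taken from the sample labels, as the 3 double knockdown libraries and the 3 HIF1A siRNA libraries, paired by replicate number, and they make up 6 of the 12 libraries of the series. RCC4 cells are a single established line from a human clear cell renal carcinoma that lacks functional VHL, and they were kept in normal oxygen. The siRNA dose was 2 nM in all. It held 1 nM HIF1A siRNA with 1 nM control siRNA in the HIF1A siRNA arm, and 1 nM HIF1A siRNA with 1 nM HIF2A siRNA in the double knockdown. The other 6 libraries received 2 nM control siRNA, or 1 nM HIF2A siRNA with 1 nM control siRNA. RNA was collected 48 h after transfection, and poly(A) RNA was sequenced. HIF2A siRNA is directed at EPAS1, the gene of HIF-2α. The arms differ in the control siRNA as well as in the HIF2A siRNA, and these cannot be told apart.

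HIF-1α and HIF-2α are alternative subunits that pair with ARNT and bind the same short DNA motif. In oxygenated cells prolyl hydroxylases mark both for destruction by VHL, and in clear cell renal carcinoma without VHL both accumulate. HIF-1 is best known for the glycolytic genes, while HIF-2 is tied in renal carcinoma to cyclin D1, VEGF-A, TGF-α and other growth-promoting genes, and it is the target of the drug belzutifan. Many genes can respond to either subunit.

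Values are raw counts per gene, expressed here as CPM, the count relative to the whole library, after scaling by library size and TMM factor. The total count was between 13263168 and 20451433 per library, so 1 CPM stood for 13.3 to 20.6 counts. A total of 13000 of 23106 genes passed the expression filter. Fold changes and p-values come from edgeR's quasi-likelihood test in 1 fit of all 12 libraries with the replicate number as a block, adjusted over all genes tested by the Benjamini-Hochberg method. A gene is called lower or higher here when its adjusted p was under 0.05. Nothing in the labels says how the replicates were grown, so p-values measure the spread between these libraries. Replicates of a group are listed in the order 1, 2 and 3. All 5 epithelial markers were expressed, with a summed level of 607 to 905 CPM with HIF1A siRNA and 587 to 906 CPM in the double knockdown. In the 6 compared libraries the 5 endothelial markers had at most 10 counts each, with PECAM1, KDR and TEK at 0, and the immune markers PTPRC, CD3E and MS4A1 were at 0. CD68 and 4 of 5 stromal markers passed the filter. The summed levels of the immune and the stromal list were 44.6 to 64.9 and 35.1 to 64.9 CPM with HIF1A siRNA and 51.3 to 65.4 and 31.9 to 77.1 CPM in the double knockdown, and the stromal marker DCN was at 0 in these libraries. Their part in the results was not tested.

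EPAS1, the target of the siRNA, was at 101, 107 and 134 CPM with HIF1A siRNA and at 8.54, 11.3 and 7.01 CPM in the double knockdown. The groups were far apart, and EPAS1 kept 7.77% of its level. The log2 fold change was -3.69 ± 0.18 (SE, adjusted p = 6.7e-08 by edgeR's quasi-likelihood test), and EPAS1 was called lower in all 16 alternative fits. In bulk RNA, fewer expressing cells and less RNA per cell cannot be told apart. HIF1A itself was at 14.99, 17.8 and 22.2 CPM with HIF1A siRNA and at 24.2, 32.2 and 29.7 CPM in the double knockdown. All 3 double knockdown values lay above all 3 HIF1A siRNA values, yet the log2 fold change of 0.66 ± 0.21 (SE) had an adjusted p of 0.18 by edgeR's quasi-likelihood test. It reached adjusted p = 0.0027 in the fit of the 6 compared libraries alone, the lowest of 16 alternatives, which ranged up to 1. ARNT, the shared partner subunit, had a log2 fold change of -0.42 ± 0.12 (SE, edgeR adjusted p = 0.11). The part of the HIF1A level in the results on HIF-1 genes was not tested.

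Within HIF1A-depleted cells more of the called genes were lower than higher with HIF2A siRNA. Of the 13000 genes 1.4% were called. There were 126 lower (0.969%) and 56 higher (0.431%), against a median log2 fold change of 0.01 over all genes. The lower genes had a median log2 fold change of -0.81, from -3.69 to -0.40, and kept 57.1% of their level in the median. The higher genes had a median of 0.69. All 126 and all 56 moved in the same direction in each of the 3 replicate pairs, compared with 18.8% of all genes lower and 19.4% higher in all 3 pairs. The groups did not overlap for 97 of the lower genes, against 4.46% of all genes with every double knockdown library lower, and for 40 of the higher genes, against 3.92% with every one higher. The genes were called on these same libraries with the replicate number as a block. That choice favours agreement between pairs and groups that do not overlap, so neither is independent evidence. At an adjusted p under 0.1, the limit used in the study, 207 were lower (1.59%) and 113 higher (0.869%), or 320 in all (2.46%). Only 42 of the lower genes fell to under a log2 fold change of -1, and 10 of the higher genes rose above 1. These counts rested on the libraries used. Without replicate 1 there were 71 calls and without replicate 3 there were 26. Leaving out 1 library gave 85, 64 and 67 calls for HIF1A siRNA replicates 1, 2 and 3, and 72, 108 and 61 for double knockdown replicates 1, 2 and 3. Without the replicate block 8 genes were called, all lower, while the fit of the 6 compared libraries alone called 656 and DESeq2 called 403. Those 8 were EPAS1, SLC2A1, EGLN3, NDRG1, F3, TRIB3, TGM2 and RNASET2. Every other gene named below as called lost its call without the block.

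**Figure D1:**
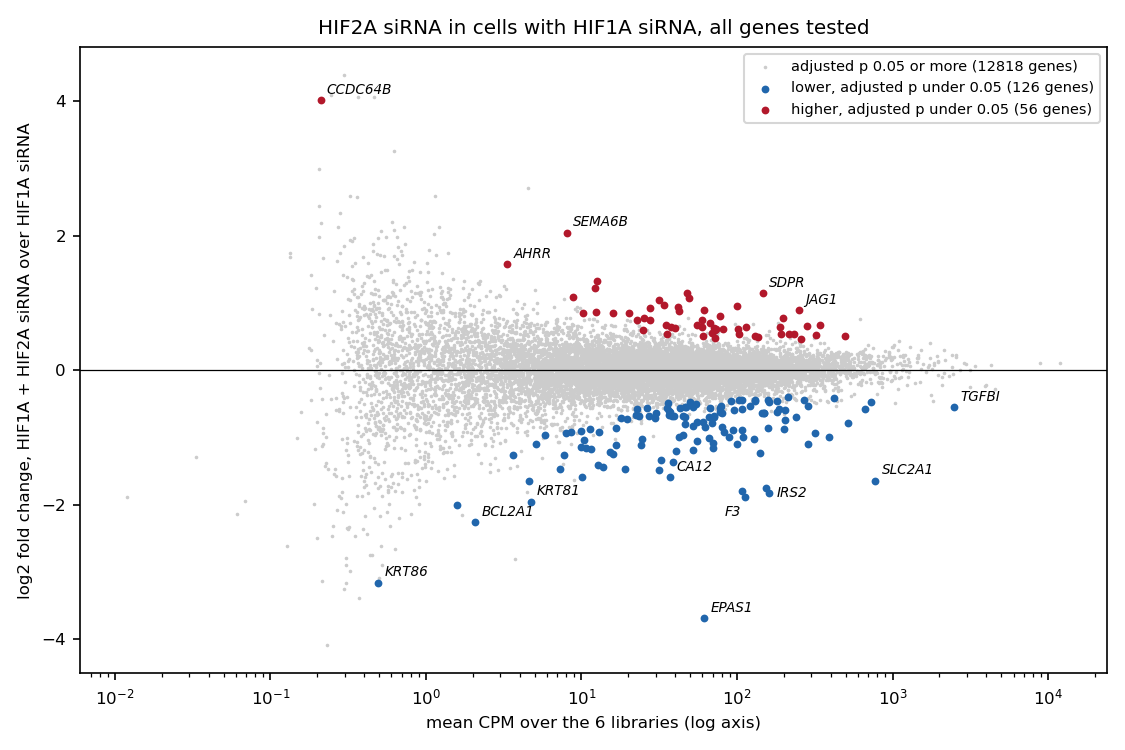
Log2 fold change of the double knockdown over HIF1A siRNA (y axis) against mean CPM over the 6 libraries (log x axis) for 13000 genes, with the 126 genes called lower in blue and the 56 called higher in red. EPAS1 is the lowest well expressed point at -3.69, SLC2A1 lies at -1.64, and the called genes at the left edge, KRT86 and CCDC64B, rest on few counts.

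Genes of glucose uptake, pH control and oxygen sensing were among the lower genes. SLC2A1, which encodes the glucose transporter GLUT1, was at 1215, 1165 and 1149.5 CPM with HIF1A siRNA and at 429, 357 and 349 CPM in the double knockdown. The lowest HIF1A siRNA library was above the highest double knockdown library by more than the spread within either group. SLC2A1 fell 3.12-fold, a log2 fold change of -1.64 ± 0.10 (SE, adjusted p = 3.3e-07 by edgeR's quasi-likelihood test). CA12, the gene of a membrane carbonic anhydrase, was at 64.4, 70.6 and 31.8 CPM and then at 21.4, 24.0 and 10.2 CPM. The groups did not overlap, although replicate 3 was the lowest in both, with a log2 fold change of -1.59 ± 0.13 (SE, edgeR adjusted p = 1.4e-05). CA9, another membrane carbonic anhydrase and a marker of clear cell carcinoma, was at 26.2, 20.7 and 9.15 CPM and at 16.3, 16.02 and 6.77 CPM, groups that overlapped. Its log2 fold change of -0.51 had an edgeR adjusted p of 0.15. EGLN3, the oxygen-sensing prolyl hydroxylase PHD3, was at 55.9, 64.6 and 47.2 CPM and at 24.1, 25.1 and 15.97 CPM. Those groups did not overlap, with a log2 fold change of -1.37 ± 0.13 (SE, edgeR adjusted p = 5.2e-05). The other prolyl hydroxylase genes, EGLN1 and EGLN2, had log2 fold changes of 0.04 and -0.02 and were not called. Of 9 subunits and oxygen sensors tested, EPAS1 and EGLN3 were the 2 lower genes and none was higher, against 0.969% and 0.431% of all genes.

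HIF binds the letters ACGTG or GCGTG, and promoter windows of RefSeq (build GRCh38.p14, 250 bases before to 50 after a gene's start) were searched for both on either strand. Overlapping matches were counted separately. A match is no more than these letters, and distant elements lie outside the window. Only the first window listed for a gene was used, so its other starts were not searched. A window was found for 89 of the 126 lower genes, 44 of the 56 higher genes and 10170 of 13000 genes tested. At least 1 match was present in 61.8% of the lower genes, 50.0% of the higher genes and 63.2% of all genes, so lower genes did not hold the letters more often than genes at large. ACGTG alone was in 21.3, 13.6 and 26.7%, respectively, and GCGTG in 53.9, 43.2 and 50.9%. The median GC content of the windows was 70.3% for the lower, 68.2% for the higher and 65.3% for all genes, and the shares were not adjusted for it. The 250 bases before the start are shown for SLC2A1, EGLN3 and CA12, which had the smallest p in the test of whether the response to HIF2A siRNA differed with HIF1A siRNA, and for PLIN2 and DDIT4, lower genes that carry several matches. Capitals mark the matches, and the last base is the one before the start.
SLC2A1, chr1:42958869-42959118, minus strand: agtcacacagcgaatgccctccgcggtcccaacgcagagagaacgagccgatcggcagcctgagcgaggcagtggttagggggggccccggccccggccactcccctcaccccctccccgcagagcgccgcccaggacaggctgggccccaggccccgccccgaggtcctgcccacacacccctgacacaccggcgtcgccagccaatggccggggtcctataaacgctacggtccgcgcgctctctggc
EGLN3, chr14:33951075-33951324, minus strand: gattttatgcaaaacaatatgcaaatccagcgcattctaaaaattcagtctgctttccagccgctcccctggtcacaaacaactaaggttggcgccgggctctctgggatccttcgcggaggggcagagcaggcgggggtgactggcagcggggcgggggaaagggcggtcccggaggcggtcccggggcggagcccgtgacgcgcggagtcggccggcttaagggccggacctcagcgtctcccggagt
CA12, chr15:63381847-63382096, minus strand: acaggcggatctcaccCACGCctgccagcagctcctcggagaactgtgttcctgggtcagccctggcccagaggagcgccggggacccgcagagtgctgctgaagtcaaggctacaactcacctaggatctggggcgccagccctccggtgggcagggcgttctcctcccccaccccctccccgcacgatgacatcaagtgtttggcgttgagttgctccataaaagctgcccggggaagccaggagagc
PLIN2, chr9:19127493-19127742, minus strand: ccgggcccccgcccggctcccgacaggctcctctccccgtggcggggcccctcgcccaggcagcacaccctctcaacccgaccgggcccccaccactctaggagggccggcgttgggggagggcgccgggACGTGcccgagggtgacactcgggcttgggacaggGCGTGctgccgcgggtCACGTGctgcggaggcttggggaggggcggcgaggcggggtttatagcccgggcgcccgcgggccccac
DDIT4, chr10:72273674-72273923, plus strand: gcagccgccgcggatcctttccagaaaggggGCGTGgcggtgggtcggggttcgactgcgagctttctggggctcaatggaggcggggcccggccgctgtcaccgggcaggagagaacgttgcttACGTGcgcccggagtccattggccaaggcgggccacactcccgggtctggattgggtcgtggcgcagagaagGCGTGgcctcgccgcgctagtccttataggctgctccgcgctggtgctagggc
SLC2A1 and EGLN3 held no match in these 250 bases, CA12 held 1 GCGTG, PLIN2 held 3 ACGTG and 1 GCGTG, and DDIT4 held 1 and 2.

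Several factors that act on vessels and on clotting were lower. VEGFA, the vascular endothelial growth factor, was at 129.7, 160.2 and 118 CPM with HIF1A siRNA and at 66.9, 66.5 and 55.6 CPM in the double knockdown. The groups did not overlap and the log2 fold change was -1.10 ± 0.10 (SE, adjusted p = 3.3e-05 by edgeR's quasi-likelihood test). ADM, which encodes the vasodilator adrenomedullin, went from 74.8, 51.0 and 17.3 CPM to 21.4, 21.8 and 9.06 CPM. These groups overlapped, with replicate 3 the lowest in both, and within pairs the log2 fold change was -1.34 ± 0.19 (SE, edgeR adjusted p = 0.0015). EDN1, the vasoconstrictor endothelin-1, had a log2 fold change of -0.99 ± 0.19 (SE, edgeR adjusted p = 0.018), with overlapping groups of 31.1 to 89.9 and 19.1 to 38.1 CPM. These were the 3 lower genes among 13 angiogenic and vasoactive factors tested, against 0.969% of all genes, and the list median was -0.21. F3, tissue factor, which starts the extrinsic clotting cascade, was at 173, 206 and 156 CPM and at 48.8, 52.8 and 43.2 CPM. It fell 3.69-fold with no overlap, a log2 fold change of -1.89 ± 0.15 (SE, edgeR adjusted p = 1.2e-05), and was called in all 16 alternative fits. PLAT, the tissue plasminogen activator, had a log2 fold change of -1.14 ± 0.26 (SE, edgeR adjusted p = 0.046). F3 and PLAT were the 2 lower genes of 10 tested for tissue factor and fibrinolysis. The call of EDN1 was lost without any 1 of the 6 libraries except HIF1A siRNA replicate 3 (edgeR adjusted p from 0.021 to 0.18), and that of PLAT without any but double knockdown replicate 2 (0.012 to 0.26).

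**Figure D2:**
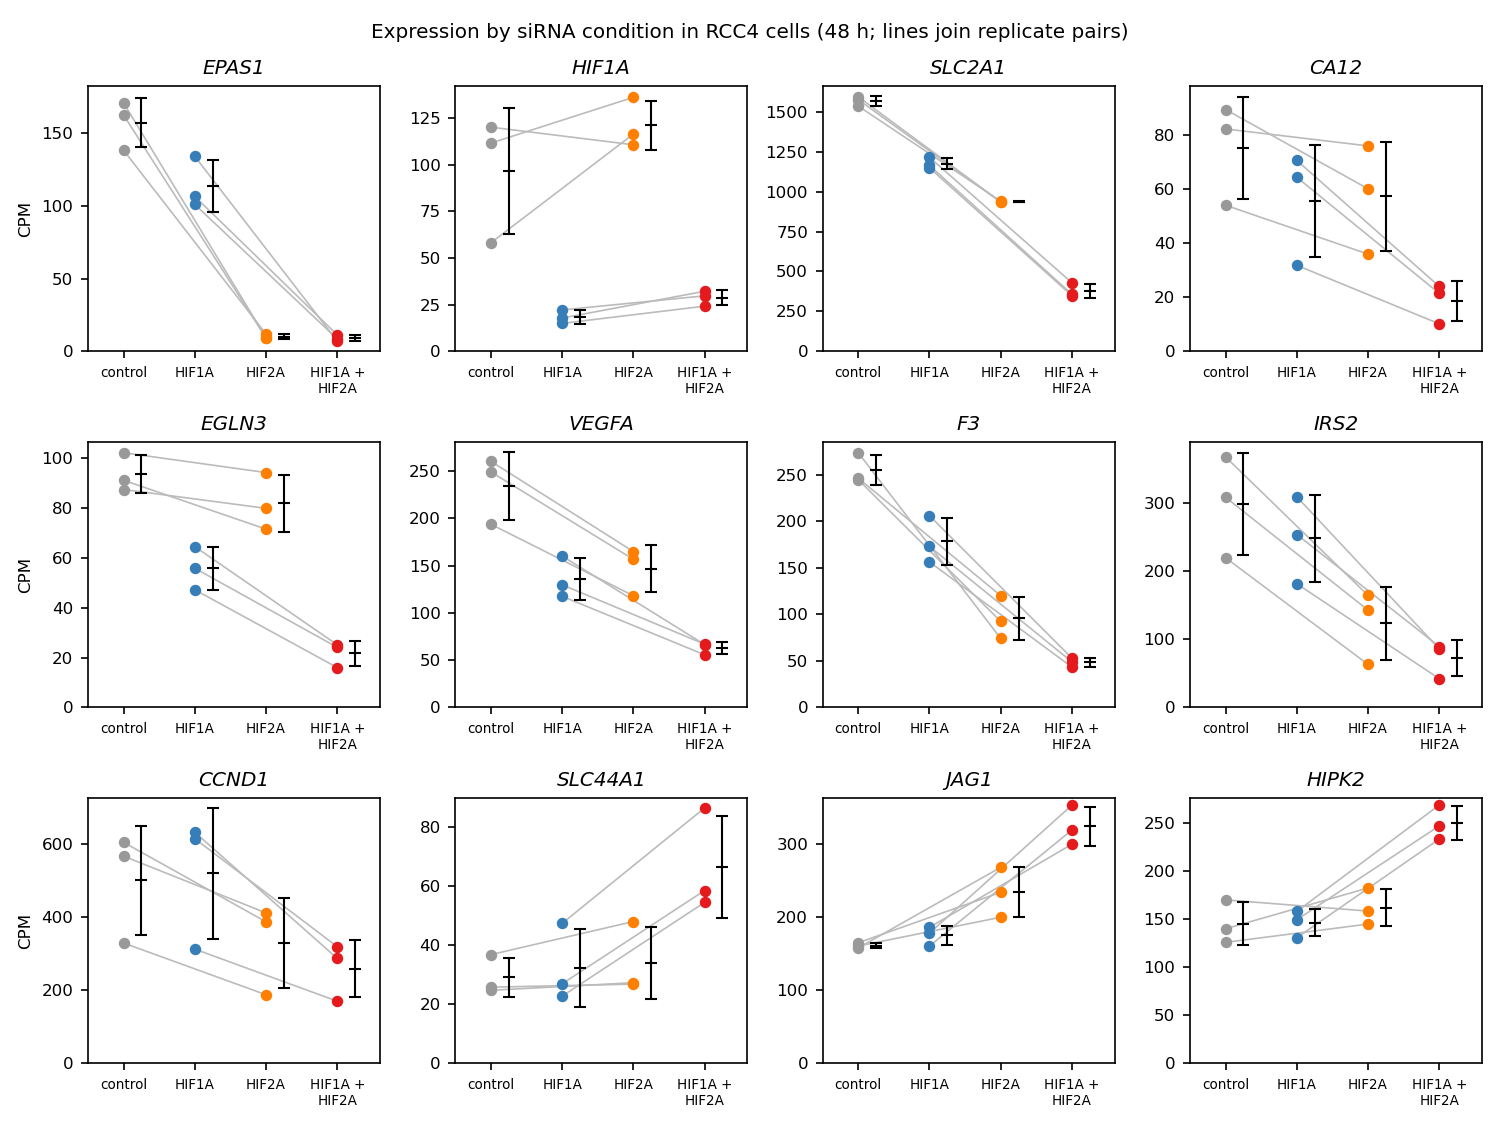
CPM (y axis, from 0) of 12 genes in the 12 libraries, by siRNA (x axis), with points for libraries, lines joining replicates of the same number within each HIF2A siRNA comparison, and black bars for mean ± SD (n = 3). SLC2A1 falls from 1149.5 to 1215 CPM with HIF1A siRNA to 349 to 429 CPM in the double knockdown, and EGLN3 separates there but not between control and HIF2A siRNA.

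Genes of growth control formed the next group. IRS2, an adaptor of the insulin and IGF-1 receptors, was at 253, 309 and 181 CPM with HIF1A siRNA and at 89.1, 85.6 and 42.0 CPM in the double knockdown. The groups did not overlap, and the log2 fold change was -1.82 ± 0.14 (SE, adjusted p = 9.7e-06 by edgeR's quasi-likelihood test). IRS2 was the only called gene of 13 in insulin and IGF signalling, and INSR, the insulin receptor, had a log2 fold change of 0.72 at an edgeR adjusted p of 0.054. CCND1, cyclin D1, was at 616, 634 and 313 CPM and at 319.7, 288 and 170.3 CPM. Replicate 3 was the lowest in both groups and the ranges met, while the log2 fold change within pairs was -0.99 ± 0.10 (SE, edgeR adjusted p = 7.9e-05). It was the only called gene of 16 G1 cyclins and CDK inhibitors. In the EGFR, MET and AXL list 3 of 10 genes were lower and none higher. Of all genes 0.969% were called lower and 0.431% higher. MACC1, a regulator of MET expression, was at 63.6, 45.8 and 29.5 CPM and at 22.7, 20.6 and 8.18 CPM, with a log2 fold change of -1.49 ± 0.14 (SE, edgeR adjusted p = 5.2e-05). CDCP1, a membrane substrate of SRC kinases, had -1.09, and TGFA, an EGFR ligand, had -0.56 ± 0.12 (SE, edgeR adjusted p = 0.034). MACC1 and CDCP1 did not overlap between groups. The call of CDCP1 was lost without replicate 3 (edgeR adjusted p = 0.070, within 2.6e-12 to 0.099 over 16 alternatives), and that of TGFA without any 1 library (0.086 to 0.23).

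Lipid and stress genes were called in both directions, and iron genes as lower. PLIN2, which coats lipid droplets, was at 203, 237 and 178 CPM with HIF1A siRNA and at 123, 113 and 102 CPM in the double knockdown. No double knockdown value reached the HIF1A siRNA values, and the log2 fold change was -0.86 ± 0.11 (SE, adjusted p = 0.00055 by edgeR's quasi-likelihood test). MGLL, monoacylglycerol lipase, was lower and LIPC, hepatic lipase, higher, with log2 fold changes of -0.94 and 0.67 (edgeR adjusted p = 0.0046 and 0.0039). PLIN2 and MGLL were the 2 lower genes and LIPC the 1 higher gene of 12 lipid droplet and lipolysis genes. Of all genes 0.969% were called lower and 0.431% higher. HMOX1, heme oxygenase, and CP, the ferroxidase ceruloplasmin, had log2 fold changes of -0.90 and -0.77 (edgeR adjusted p = 0.0021 and 0.0019) and were the lower genes of 9 in iron handling. Of 16 ATF4 stress genes, TRIB3 (-1.23), DDIT4 (-0.96) and SLC7A5 (-0.58) were lower, and PSAT1, an enzyme of serine synthesis, was higher (0.80), with a list median of -0.01. TRIB3, a pseudokinase, was at 205, 209.6 and 175 CPM and at 92.4, 76.0 and 81.4 CPM without overlap. TRIB3 kept its call in all 16 alternative fits, while PLIN2, HMOX1, CP, DDIT4 and PSAT1 lost theirs without replicate 3 (edgeR adjusted p from 0.080 for PLIN2 to 0.21 for HMOX1) and without the replicate block. SLC7A5 lost its call in 5 of the 6 fits without 1 library (edgeR adjusted p from 0.027 to 0.14). MGLL lost it without replicate 3 (0.25) or double knockdown replicate 3 (0.056), and LIPC without replicate 1 (0.10), replicate 3 (0.29) or double knockdown replicate 1 (0.060).

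Of the AHR pathway, a sensor of xenobiotics and another partner of ARNT, 6 genes were tested. Among these 2 were called lower and 1 higher, against 0.969% and 0.431% of all genes. AHR itself was at 59.1, 57.8 and 84.2 CPM and at 33.4, 33.4 and 46.4 CPM, with no overlap and a log2 fold change of -0.83 ± 0.11 (SE, adjusted p = 0.0011 by edgeR's quasi-likelihood test). TIPARP, an AHR target that restrains the receptor, was lower with a log2 fold change of -0.69 (edgeR adjusted p = 0.036). AHRR, a repressor of AHR, was higher, from 1.32, 2.66 and 1.22 CPM to 6.01, 4.81 and 3.89 CPM, a log2 fold change of 1.58 (edgeR adjusted p = 0.034). Another AHR target, CYP1B1, had -0.29 and was not called. The AHR call was lost without replicate 3 (edgeR adjusted p = 0.20), the TIPARP call without any 1 library (0.054 to 0.24), and the AHRR call without any but double knockdown replicate 2 (0.036 to 0.25). Cell adhesion gave 3 lower genes of 18 integrins, against 0.969% of all genes. ITGB8, the subunit of the TGF-β activating integrin, was at 100.1, 98.7 and 92.2 CPM and at 55.4, 35.1 and 41.3 CPM. Its log2 fold change was -1.16 ± 0.13 (SE, edgeR adjusted p = 0.00023), while ITGA5 and ITGB5, at -0.41 and -0.40, lost their calls without any 1 library (edgeR adjusted p from 0.10 to 0.26).

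Of the 19 genes that the study selected as specific to HIF-2 from the control, HIF1A and HIF2A siRNA libraries, 16 were called lower and none higher, against 0.969% of all genes called lower. The list was chosen for low values with HIF2A siRNA in libraries that do not enter this comparison, but genes low with HIF1A siRNA were left out of it, which favours high values in the HIF1A siRNA libraries used here, so it is not independent evidence. All 19 had a log2 fold change below zero, with a median of -1.11 here and -0.87 for HIF2A siRNA against control siRNA. Next to the genes already given, SYT13, a synaptotagmin, was at 274, 287 and 146 CPM with HIF1A siRNA and at 97.3, 71.5 and 43.2 CPM in the double knockdown. That is a log2 fold change of -1.75 without overlap (SE 0.14, adjusted p = 9.7e-06 by edgeR's quasi-likelihood test). PLEKHG4B (-1.59), PDZD2 (-1.25), ARRDC3 (-1.21), an α-arrestin, OTUB2 (-1.11), a deubiquitinase, and TGM2 (-0.99), a transglutaminase, were lower as well. The 3 genes not called were SEMA5B, ASB2 and CLEC4E, the first just past the threshold. SEMA5B went from 6.46, 6.54 and 6.23 CPM to 1.52, 1.58 and 0.243 CPM (log2 fold change -2.80, SE 0.66, edgeR adjusted p = 0.0503), and without replicate 2 its adjusted p was 0.0086, within a range of 5.6e-06 to 0.96 over 15 alternatives. The count of 16 lay between 14 and 18 with 1 library or replicate number left out, except that it was 8 without replicate 3, and it was 2 without the replicate block. PDZD2 lost its call without replicate 3 or double knockdown replicate 3 (edgeR adjusted p = 0.25 and 0.055), and OTUB2 and TGM2 without replicate 3 (0.084 and 0.068).

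Among 20 HIF targets known from the textbook, 10 were called lower, against 0.969% of all genes, and none was called higher. The list was chosen with earlier results of these data known. Its median log2 fold change was -0.71, with 19 of 20 below zero, against 48.6% of all genes. Lower genes not yet named include NDRG1, a hypoxia-induced gene. It was at 159.7, 157 and 181.6 CPM with HIF1A siRNA and at 52.9, 46.2 and 44.8 CPM in the double knockdown. NDRG1 did not overlap and had a log2 fold change of -1.79 ± 0.19 (SE, adjusted p = 0.00016 by edgeR's quasi-likelihood test), with a call in all 16 alternative fits. The study's list of HIF-1 specific genes, 222 in all, had a median of -0.16 and 160 genes below zero. Of these 18 were called lower, or 8.11% against 0.969% of all genes, and 1 was called higher. EPAS1, the target of the siRNA, is in the list as the study gives it, although the study's methods leave EPAS1 out of its lists. Without EPAS1, 17 genes were lower. The lower genes included EGLN3, NDRG1, DDIT4, STC1 (-0.91), a secreted regulator of calcium and phosphate, ENO2 (-0.53), a glycolytic enolase, AK4 (-0.62), an adenylate kinase, and ZNF395 (-0.64). The list was chosen for low values in the HIF1A siRNA libraries, a choice that favours a rise in the double knockdown rather than a fall. The 1 higher gene, CCDC64B, had 0, 1 and 0 counts with HIF1A siRNA and 5, 6 and 10 in the double knockdown, against 78, 196 and 53 with control siRNA, and its fitted fold change depends on the prior count. It lost its call without any 1 library except double knockdown replicate 2 (edgeR adjusted p from 0.047 to 0.16). The count of 18 was 9 without replicate 1, 3 without replicate 3, 8 without HIF1A siRNA replicate 2 or 3, 9 without double knockdown replicate 1 or 3, and 3 without the replicate block. STC1, ENO2, AK4 and ZNF395 each lost their call in 3 to 5 of the 6 fits without 1 library (edgeR adjusted p up to 0.16).

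Among 21 glycolytic genes ENO2 was the only one called lower, against 0.969% of all genes, and none was higher. The median log2 fold change was -0.14. The summed level of the 21 genes was 18216, 17097 and 15279 CPM with HIF1A siRNA and 16879, 15578 and 14804 CPM in the double knockdown. The double knockdown was lower in each pair, but the ranges overlapped. LDHA, lactate dehydrogenase A, was at 1995, 2456 and 1524 CPM and at 1717, 1631 and 1235 CPM, overlapping groups with a log2 fold change of -0.37 ± 0.11 (SE, edgeR's quasi-likelihood adjusted p = 0.11). It passed with DESeq2 (adjusted p = 0.049), with the GC and length trend removed (0.045) and in the 6 libraries alone (0.013), in a range up to 1 over 16 alternatives.

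**Figure D3:**
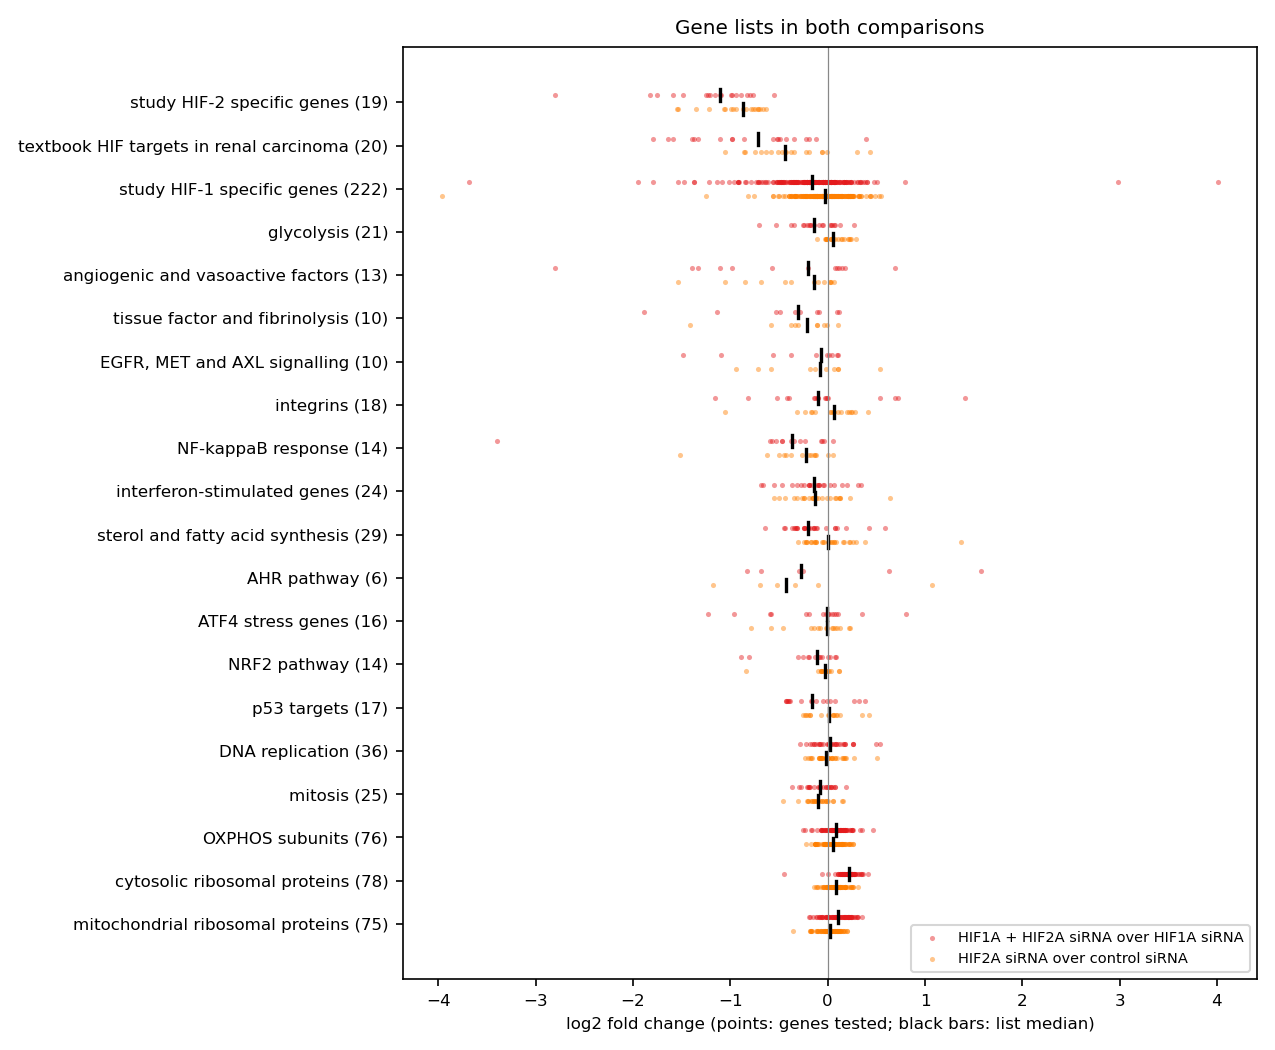
Log2 fold changes of the tested genes of 20 lists (x axis) for the double knockdown over HIF1A siRNA in red and HIF2A siRNA over control siRNA in orange, with black bars at the median of each list. The study's HIF-2 genes lie furthest left with medians of -1.11 and -0.87, glycolysis is at -0.14 and 0.06, and cytosolic ribosomal proteins are at 0.22 and 0.09.

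Of the 56 higher genes 7 were in one of the pathway lists, and of the 126 lower genes 37 were. The share of all genes tested that lies in these lists was not counted. The lists were also chosen with earlier results of these data known, so no conclusion is drawn from these counts. JAG1, a Notch ligand, rose from 160.4, 178 and 186 CPM with HIF1A siRNA to 319, 353 and 299.5 CPM in the double knockdown. The groups were apart and the log2 fold change was 0.89 ± 0.11 (SE, adjusted p = 0.0004 by edgeR's quasi-likelihood test). SLC44A1, a choline transporter, rose from 22.7, 26.9 and 47.3 CPM to 54.4, 58.4 and 86.4 CPM. Here too every double knockdown library was above every HIF1A siRNA library, with a log2 fold change of 1.08 ± 0.12 (SE, edgeR adjusted p = 0.00022). HIPK2, a nuclear kinase, rose from 131, 149 and 158 CPM to 233, 247 and 269 CPM, by 0.78 on the log2 scale (edgeR adjusted p = 0.0011). SDPR, a caveolar protein also named cavin-2, rose by 1.14, and ELF3, an epithelial transcription factor, by 1.04. SEMA6B, a semaphorin, had the largest rise among the called genes other than CCDC64B, from 3.97, 2.80 and 2.48 CPM to 10.1, 14.3 and 14.8 CPM, a 4.13-fold rise (edgeR adjusted p = 0.0041). CDH6, a kidney cadherin, rose by 0.96 and the phosphate transporter SLC34A2 by 1.14. JAG1 and SLC44A1 kept their calls whichever library or replicate number was left out, but lost them without the replicate block (edgeR adjusted p = 0.052 and 0.78). HIPK2 lost its call without replicate 1 or 3 (edgeR adjusted p = 0.052 and 0.10), SDPR without replicate 3 (0.069), ELF3 without replicate 1 or HIF1A siRNA replicate 2 (0.051 and 0.058), and SEMA6B without replicate 3, HIF1A siRNA replicate 2 or HIF1A siRNA replicate 3 (0.27, 0.057 and 0.054). CDH6 and SLC34A2 lost theirs in 4 and 5 of the 6 fits without 1 library (up to 0.11 and 0.16).

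Most other lists held few calls, and of all genes 0.969% were called lower and 0.431% higher. RRM2, a subunit of ribonucleotide reductase, and RPA1, a single-strand DNA binding protein, were higher among 36 DNA replication genes by 0.54 and 0.50, and none of 25 mitosis genes was called in the edgeR test, with 3 at an unadjusted p under 0.05 and all 3 lower. UQCRH was the 1 higher gene of 76 subunits of oxidative phosphorylation, and MSMO1 the 1 lower gene of 29 in sterol and fatty acid synthesis, where 23 lay below zero. TNFAIP3 was the 1 lower gene of 14 in the NF-κB response (median -0.36, 13 of 14 below zero), and DDX58, the RNA sensor RIG-I, the 1 lower gene of 24 interferon-stimulated genes (median -0.14). All 6 of these genes lost their call in 5 or 6 of the 6 fits without 1 library, with edgeR adjusted p up to 0.30. No gene of 17 p53 targets, 11 in the MYC network, 13 of RNA interference or 20 of ER folding was called by edgeR, with 6, 2, 0 and 1 at an unadjusted p under 0.05. Of all genes 6.97% were lower and 5.22% higher at that limit. Keratins KRT81 (-1.95) and KRT86 (-3.16) were lower, but KRT86 was at 0.719 to 1.11 CPM with HIF1A siRNA. These paralogs are nearly identical, and the study excluded fragments that did not map uniquely. What this did to their counts was not tested. KRT86 lost its call without any 1 library (edgeR adjusted p from 0.091 to 0.23), and KRT81 without replicate 3 (0.27). Of the study's genes higher in tumor cells, 10 of 136 were called lower here, 7.35% against 0.969% of all genes. Among them were SLC2A1, EGLN3, VEGFA, CCND1, ADM and RNASET2. Of the study's genes lower in tumor cells, 2 of 112 were called lower (AK4 and MME), or 1.79%, and 1 higher (PSAT1), or 0.893%. Its heterogeneity modules 1, 2 and 3 gave 2 of 13 (CCND1 and ANXA4), 1 of 10 (CP) and 0 of 20 lower genes, and no higher ones. ANXA4 and MME lost their calls in 6 and 4 of the 6 fits without 1 library.

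The same siRNA was also given without HIF1A siRNA, and HIF2A siRNA against control siRNA shares no library with the comparison above. There, edgeR called 25 genes lower (0.192%) and 1 higher (0.00769%), and all 26 were called in the same direction in HIF1A-depleted cells. Of the 126 lower genes 126 had a log2 fold change below zero with HIF2A siRNA against control siRNA, where 49.9% of all genes did, and 103 were lower in all 3 pairs, 81.7% against 12.1% of all genes. For the higher genes 56 of 56 were above zero and 43 rose in all 3 pairs, 76.8% against 10.9%. The single higher gene with control siRNA was HOGA1, a mitochondrial aldolase, which rose by 0.60 with HIF1A siRNA present and by 0.68 without. With HIF1A siRNA present it lost its call without any 1 library (edgeR adjusted p from 0.055 to 0.18). The median of the 126 genes was -0.81 with HIF1A siRNA present and -0.46 without. Further from zero when it was present lay 121 of the 126, against 7315 of all 13000 genes. That choice of genes favours the first value. Of the 24 genes called lower with HIF2A siRNA against control siRNA, EPAS1 left out, a choice that favours the second, 22 lay further from zero with HIF1A siRNA present, with medians of -1.14 and -0.79. EPAS1 itself had log2 fold changes of -3.69 and -3.97, a difference of 0.28 ± 0.24 (SE, unadjusted p = 0.27 by edgeR's quasi-likelihood test). The counts of 25 and 1 depended on single libraries, since 3 and 0 were called without replicate 1, 41 and 8 without replicate 2, 1 and 0 without replicate 3, 6 and 0 without control siRNA replicate 3, 6 and 1 without HIF2A siRNA replicate 3, and 2 and 0 without the replicate block.

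**Figure D4:**
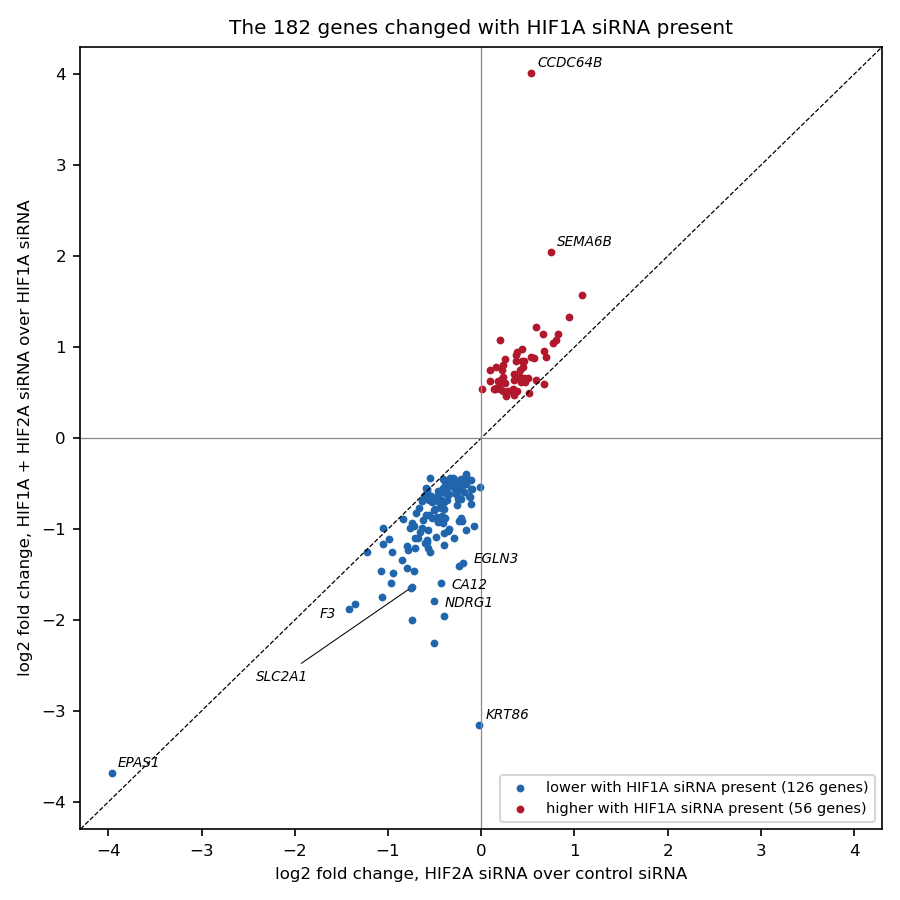
Log2 fold changes of all called genes with HIF2A siRNA against control siRNA (x axis) and with the double knockdown against HIF1A siRNA (y axis), with a dashed line at equal values. Blue points (126 lower) and red points (56 higher) keep their sign on both axes, and 121 and 54 of them lie further from zero on the y axis, on which the genes were chosen.

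Whether the effect of HIF2A siRNA differed with HIF1A siRNA was tested as the interaction in the same fit. No gene had an adjusted p under 0.05 by edgeR's quasi-likelihood test, 318 had an unadjusted p under 0.05 (2.45%), and DESeq2 called 11. At an adjusted p under 0.1 edgeR gave 3 genes (0.0231%), SLC2A1, EGLN3 and CA12, all with an adjusted p of 0.065. EGLN3 was at 91.3, 102 and 87.5 CPM with control siRNA and at 71.6, 94.3 and 79.96 CPM with HIF2A siRNA, groups that overlapped. It kept 87.4% of its level there and 38.7% with HIF1A siRNA present, a difference in log2 fold change of -1.18 ± 0.18 (SE). CA12 kept 74.3% and 33.2% (difference -1.16, SE 0.18), and SLC2A1 kept 59.7% and 32.1% (difference -0.90, SE 0.13). Measured in CPM, SLC2A1 fell by 632 without HIF1A siRNA and fell by 798 with it. EGLN3 fell by 11.7 without it and fell by 34.2 with it, and CA12 fell by 17.9 and fell by 37.1, respectively. All 10 genes with the smallest interaction p lay further from zero with HIF1A siRNA present, against 7315 of all 13000 genes. Of the 10 genes 9 were called there, the exception being CA9, at -0.51 with HIF1A siRNA and 0.43 without. The sign of the CA9 estimate thus differed, and in CPM it fell by 5.64 with HIF1A siRNA and rose by 78.4 without. CA9 was called in neither comparison, however, and its interaction had an adjusted p of 0.54 by edgeR's quasi-likelihood test. A difference in its response is therefore not shown. The interaction test called 3 genes without HIF2A siRNA replicate 1 and 1 without HIF2A siRNA replicate 2, and the adjusted p of SLC2A1, EGLN3 and CA12 ranged up to 1 over 21 alternatives. In the lists, 171 of 222 HIF-1 genes, 19 of 21 glycolytic genes, 15 of 20 textbook HIF targets and 17 of 19 HIF-2 genes had a lower log2 fold change with HIF1A siRNA present than without, against 49.7% of all genes. The study chose the HIF-1 and HIF-2 lists on libraries that enter these values, so their counts are not independent evidence. Nor are those of the glycolytic and textbook lists, which were chosen with earlier results of these data known. No gene at all was called by edgeR's interaction test, so the lack of calls in these lists says nothing about them. By the DESeq2 Wald test EGLN3, NDRG1 and DDIT4 of the HIF-1 list were among the 11 genes called (adjusted p = 2.8e-05, 0.0074 and 0.015). The glycolysis median went from 0.06 to -0.14 and that of the HIF-1 genes from -0.02 to -0.16.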

How the data were processed

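Total RNA of 12 RCC4 cultures was made into poly(A) libraries with a directional kit and sequenced, 3 libraries for each of 4 siRNA treatments, grouped here by the sample titles. The authors deposited a raw read count per gene for each library, and the counts carry no normalization. Per the submitters' processing notes and the study's methods, reads were trimmed with Trim Galore 0.3.3 and aligned to hg19 with HISAT2 2.05. Fragments that did not map uniquely were removed with Picard 2.0.1, and the rest were counted with HTSeq 0.5.4p3 in its intersection-strict mode. The strand setting of the counting is not given in the sources used here, so overlapping and antisense genes may share reads. The study tested these counts with DESeq2, with conditions paired by biological replicate.

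Here the counts were fitted with edgeR 4.0.16 (limma 3.58.1, R 4.3.3): genes were kept by filterByExpr (minimum count 10, minimum total count 15), library sizes were scaled by TMM, and the quasi-likelihood test was run on 1 model of 12 libraries with 4 conditions and the replicate number as a block. Same-numbered libraries of the compared conditions deviated together, with correlations across genes of 0.41 to 0.74, against -0.60 to 0.36 for different numbers. Over all 12 libraries, on which the block was fitted, these ranges overlapped, at 0.10 to 0.74 and -0.64 to 0.44. Deviations were taken from the mean of each condition, which lowers the values for different numbers. Ratios within pairs used 0.5 CPM as prior. Totals of 13263168 to 20451433 counts limit the precision of genes under a few CPM. Alternatives were DESeq2 1.42.0 (size factors, and its Wald test), other count filters, no replicate block, a fit of the 6 compared libraries alone, removal of a GC content and length trend (spline with 5 degrees of freedom), and leaving out replicates or libraries.

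Genes to be named were drawn by rule: EPAS1, HIF1A and ARNT, the study's HIF-2 list, the 12 largest called changes in each direction with all 3 pairs in that direction and at least 1 CPM, the 10 smallest p in each direction and in the interaction, 3 members of each gene list, and the markers. Not every gene so drawn is given in the text, and UNC13A, CHST2, RAB42 and APOL1 are among those left out. A few further list members were named after their values were seen. The members and lists were chosen with earlier results of these data known. The lists specific to HIF-1 and HIF-2, higher or lower in tumor cells, and of heterogeneity modules come from the study's supplementary tables.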

Additional observations from a re-analysis of the deposited data

Results flagged for a closer look

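SLC2A1, EGLN3 and CA12 stood out at an adjusted p under 0.1 for the interaction of the siRNAs in edgeR's quasi-likelihood test. That interaction asks whether the effect of HIF2A siRNA differed between cells with and without HIF1A siRNA, and no gene was called for it at 0.05. The difference in log2 fold change was -0.90 for SLC2A1 (SE 0.13), from -0.74 without HIF1A siRNA to -1.64 with it. It was -1.18 for EGLN3 (SE 0.18), from -0.19 to -1.37, and -1.16 for CA12 (SE 0.18), from -0.43 to -1.59. Each had an adjusted p of 0.065, under 0.1 but above 0.05. Over 21 alternatives the difference lay between -0.99 and -0.84 for SLC2A1, between -1.37 and -1.04 for EGLN3 and between -1.29 and -1.02 for CA12, so its direction held in every one. An adjusted p under 0.1 was reached in 8, 8 and 7 of them and one under 0.05 in 4 each. In CPM SLC2A1 fell by 798 with HIF1A siRNA and fell by 632 without. Groups of 3 libraries were not searched for outlying values.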

How the results depend on the processing

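None of the called genes followed through the alternatives, those named in the report, changed direction in any of them. The uncalled EGLN1 (0.04) and EGLN2 (-0.02) lay on both sides of zero with libraries or replicates left out, EGLN1 from -0.086 to 0.16 and EGLN2 from -0.086 to 0.084. Called lower, called higher and called in all were 126, 56 and their sum for the double knockdown over HIF1A siRNA. They were 8, 0 and 8 with no replicate block, when 557 genes had an unadjusted p under 0.05, 263, 140 and 403 by the DESeq2 Wald test, 210, 98 and 308 with the GC and length trend removed, 412, 244 and 656 in the 6 libraries alone, and 207, 113 and 320 at an adjusted p under 0.1. With no filter on low counts 88 genes were higher. Leaving out libraries or replicates gave 22 to 143, 4 to 66 and 26 to 209. For HIF2A siRNA over control siRNA, with 25, 1 and 26, the counts were 42, 13 and 55 with no filter, 2, 0 and 2 with no replicate block, 60, 22 and 82 by DESeq2, 42, 6 and 48 with the trend removed, 3, 0 and 3 in the 6 libraries alone, and 1 to 41, 0 to 8 and 1 to 49 with libraries or replicates left out. The interaction, with 0 calls, gave 4, 0 and 4 with no filter, 10, 1 and 11 by DESeq2, 3, 0 and 3 with the trend removed, and 0 to 3, 0 and 0 to 3 with libraries or replicates left out. The lower HIF-1 list genes, 18 in the fit, numbered 29 by DESeq2, 33 in the 6 libraries alone and 3 with no replicate block. The 8 genes called with no replicate block, and the 22 lower and 4 higher without replicate 3, were all among those called in the fit. The replicate numbers pair the libraries by the study's methods, and the cause of the other changes was not tested. Scaling by DESeq2 size factors changed no count by over 1.5 times, and no setting moved the median of all genes by over 0.1 on the log2 scale. Genes under a few CPM, such as CCDC64B and KRT86, rest on few counts.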

Other observations

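Genes of cytosolic ribosomal proteins lay above zero in the double knockdown over HIF1A siRNA for 75 of 78 tested, with a median log2 fold change of 0.22, against 0.01 over all genes. None was called at an adjusted p under 0.05 by edgeR's quasi-likelihood test, and 17 were higher at an unadjusted p under 0.05. Their summed level was 52603, 51649 and 34661 CPM with HIF1A siRNA replicates 1, 2 and 3 and 54159, 65643 and 41105 CPM in the double knockdown. The sum was higher in each pair, the groups overlapped, and replicate 3 was the lowest in both. With HIF2A siRNA over control siRNA the median was 0.09. Mitochondrial ribosomal proteins had a median of 0.10, with 57 of 75 above zero.

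BCL2A1, an anti-apoptotic member of the BCL2 family, was the only called gene of 13 in that family, against 1.4% of all genes called. It had 78, 49 and 54 counts with HIF1A siRNA and 21, 6 and 13 in the double knockdown, with no overlap and a log2 fold change of -2.26 ± 0.42 (SE, edgeR adjusted p = 0.013). Its call was lost in 4 of the 6 fits without 1 library, with an edgeR adjusted p of up to 0.11.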
